A study of Homo sapiens with 6 samples.

Results

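The keratin gene clusters were examined for H3K27me3, a repressive histone mark that EZH2 lays down, in 3 B cell lymphoma lines of the diffuse large type. The members were the intervals called as enriched, named islands, that overlapped either of 2 regions of hg19. One was the type II keratin cluster with KRT18, on chromosome 12 from 52560001 to 53350000. The other was the type I keratin cluster with the keratin-associated protein genes, on chromosome 17 from 38800001 to 39790000. Of 71913 autosomal islands in the 3 lists, 87 met this rule, 31 at the type II and 56 at the type I cluster. Pfeiffer gave 20 of 21258 islands, WSU-DLCL2 36 of 23066 and KARPAS-422 31 of 27589. The choice rested on position, not on any measured value.

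Pfeiffer, WSU-DLCL2 and KARPAS-422 are established lymphoma lines, all labelled as mutant for EZH2, with no treatment named in the labels. Their labelled average gIC50 values were 28, 134 and 232 nM, without a compound, in a series on sensitivity to GSK126, an inhibitor of EZH2. Values are given in this order of the lines throughout. Formaldehyde-fixed cells of each line gave 1 library after immunoprecipitation and 1 from input. With 1 library per line there is no replicate spread, so differences between lines are given without a test. The lists held 16039824 to 17188115 H3K27me3 reads in autosomal islands, and 8800268, 8224578 and 5694645 input reads, fewest in KARPAS-422. The labelled cell type was not checked against marker genes, since gene positions on hg19 were not used here.

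Keratins are the intermediate filament proteins of epithelia. A filament is built from pairs of a type I (acidic) and a type II (basic) chain, and the genes of each type lie side by side on their own chromosome, except KRT18, a type I gene beside its type II partner KRT8. KRT5 and KRT14 mark basal keratinocytes, KRT1 and KRT10 differentiating epidermis, and KRT8 and KRT18 simple epithelia, while the hair keratins and the keratin-associated proteins build the hair shaft. Lymphoid cells use vimentin in place of keratins, so in B cells these clusters are long stretches of tissue-specific genes of another lineage. Polycomb repressive complex 2, which holds EZH2, can lay H3K27me3 over such stretches.

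The order of the genes was taken from the RefSeq gene table for GRCh38.p14, for names and neighbours only. All 54 keratins of the list were found there. From KRT80 to KRT18 the table had 27 protein-coding genes, all of them listed keratins. The order runs from KRT80 and KRT7 through the hair keratins (KRT86, KRT81, KRT83, KRT85, KRT84, KRT82), KRT75, KRT6B, KRT6C, KRT6A and KRT5. It goes on with the inner root sheath keratins KRT71, KRT74, KRT72 and KRT73, then KRT2, KRT1, KRT77, KRT76, KRT3, KRT4, KRT79 and KRT78, and ends with KRT8 and KRT18. From KRT222 to KRT17 there were 62 protein-coding genes, of which 27 were listed keratins, 34 keratin-associated protein genes and 1 KRT222. The keratin-associated genes formed an unbroken block, ranks 13 to 46 of the 62. Before it came 11 keratins from KRT24 to KRT40, among them KRT10, KRT12, KRT20 and KRT23. After it came 16, from the hair keratins KRT33A to KRT36 to the epithelial KRT13, KRT15, KRT19, KRT9, KRT14, KRT16 and KRT17. Islands are on hg19, so they were not assigned to single genes.

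The promoters that could be matched were poor in CpG, the base pair step that marks many Polycomb-bound promoters in other cells. The unmatched keratins, which include most epithelial keratins of the KRT17 end, were not counted. RefSeq promoters (GRCh38.p14) were matched for 34 of the 54 keratins, 14 of type II and 20 of type I, with the first listed start of each gene. In the 250 bases before the start the median number of CpG pairs was 2 for type II genes and 2 for type I genes, with a range of 0 to 7. The median over 27305 genes of the table was 11, and over its 15843 protein-coding genes it was 17. None of the 34 had 10 or more, against 51.9% of all genes of the table and 68.6% of protein-coding genes. The letters TATAAA, searched on both strands of the same 250 bases, occurred in 14 of 20 type I and 6 of 14 type II promoters. They occurred in 11.1% of all genes of the table and in 29 of the 33 matched promoters of keratin-associated genes, whose median CpG number was 1. Keratins without a matched entry were KRT1, KRT6A, KRT6B, KRT6C, KRT7, KRT18, KRT72, KRT77, KRT78, KRT80, KRT81, KRT83, KRT86, KRT13, KRT14, KRT15, KRT16, KRT17, KRT19 and KRT23.

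Promoters from both ends of this range are printed here, chosen after their CpG numbers were seen. Each is the 250 bases before the start, 5′ to 3′ on the minus strand, on which these genes lie. Capitals mark CpG pairs and the letters TATAAA. KRT75, a keratin of the hair follicle, had the most CpG pairs of the 34 (7, chr12:52434372-52434621). KRT5 had 6 (chr12:52520395-52520644). KRT10 (chr17:40822615-40822864) and the hair keratin KRT33B (chr17:41369814-41370063) had none, and in both TATAAA began 28 to 29 bases before the start. These positions are on GRCh38.p14 and cannot be set against the island positions, which are on hg19.
KRT75: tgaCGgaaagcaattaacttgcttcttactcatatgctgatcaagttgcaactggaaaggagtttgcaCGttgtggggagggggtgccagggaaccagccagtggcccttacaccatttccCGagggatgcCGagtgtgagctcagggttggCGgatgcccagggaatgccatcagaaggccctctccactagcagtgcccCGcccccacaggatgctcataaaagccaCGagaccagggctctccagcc
KRT5: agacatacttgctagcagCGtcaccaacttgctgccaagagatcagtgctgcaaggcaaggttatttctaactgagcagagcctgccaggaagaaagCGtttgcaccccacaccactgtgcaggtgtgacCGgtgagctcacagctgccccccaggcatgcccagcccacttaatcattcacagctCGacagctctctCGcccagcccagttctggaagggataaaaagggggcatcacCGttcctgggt
KRT10: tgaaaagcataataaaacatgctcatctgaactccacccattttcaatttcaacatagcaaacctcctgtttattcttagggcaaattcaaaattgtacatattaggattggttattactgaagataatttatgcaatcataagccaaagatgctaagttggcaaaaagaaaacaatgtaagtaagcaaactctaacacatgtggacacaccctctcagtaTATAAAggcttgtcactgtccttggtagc
KRT33B: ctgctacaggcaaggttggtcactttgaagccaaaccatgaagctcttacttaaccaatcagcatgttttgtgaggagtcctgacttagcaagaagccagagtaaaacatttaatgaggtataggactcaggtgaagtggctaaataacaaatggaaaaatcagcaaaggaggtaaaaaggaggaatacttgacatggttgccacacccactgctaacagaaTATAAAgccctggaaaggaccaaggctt

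**Figure D1:**
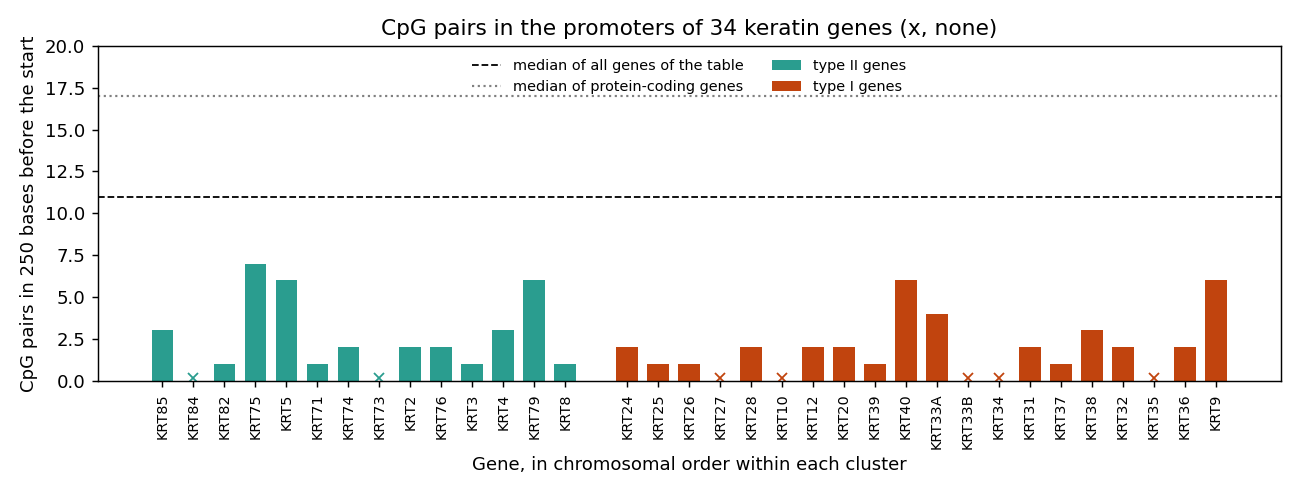
Bars give the number of CpG pairs in the 250 bases before the start of 34 keratin genes in chromosomal order, with crosses for genes that have none. All lie at 7 or below, under the medians of 11 for all genes of the RefSeq table (dashed) and 17 for its protein-coding genes (dotted).

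H3K27me3 islands lay over most of both keratin clusters in all 3 lines. The type II cluster was covered for 94.5% of its length in Pfeiffer, for 90.3% in WSU-DLCL2 and for 88.9% in KARPAS-422. For the type I cluster the shares were 93.1%, 80.3% and 64.0%. Over all autosomes the share was 25.6%, 24.8% and 24.7%. The type II cluster was thus nearly filled in each line, whereas the type I cluster differed between lines by up to 288 kb of covered length (921, 794.25 and 633 kb). In both clusters the covered share was lower the higher the labelled gIC50, an order that 3 lines cannot test. This order depended on which islands were kept. At a false discovery rate of at most 1e-10 WSU-DLCL2 (83.8%) came below KARPAS-422 (88.9%) at type II. Among islands with a fold over input of at least 2 the lines ranked the other way round. Such islands covered 5.22%, 10.4% and 75.5% of the type II cluster and 0%, 3.87% and 23.4% of the type I cluster. Of all autosomal islands 10.5%, 11.3% and 19.6% had such a fold, so this order was not particular to the clusters.

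The sequence to either side carried the mark as well, but less of it. In the 1 Mb on each side of the type II cluster, the shares of the 3 lines were 65.6%, 65.6% and 50.4%. The side of lower coordinates was the fuller, with 79.4%, 80.3% and 57.2%, against 51.8%, 50.8% and 43.6% on the other side. Around the type I cluster the flanks held 51.3%, 46.4% and 38.7%, nearly alike on both sides. The clusters exceeded their flanks by 28.9, 24.8 and 38.5 percentage points at type II and by 41.8, 33.9 and 25.3 points at type I. The autosomes were also divided into stretches of the length of each cluster. Of 3631 such stretches, 17, 13 and 37 were covered at least as much as the type II cluster (0.468%, 0.358% and 1.02%). Of 2898 stretches, 15, 36 and 264 were covered at least as much as the type I cluster (0.518%, 1.24% and 9.11%), so its place among them was highest in Pfeiffer and lowest in KARPAS-422.

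**Figure D2:**
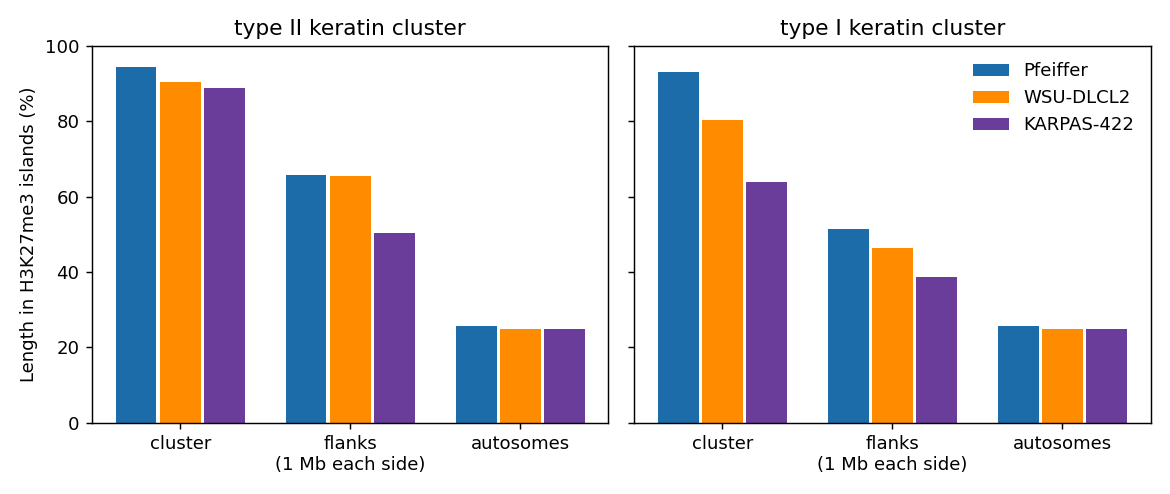
Bars give the percentage of length in H3K27me3 islands in each cluster, in its flanks of 1 Mb on each side and on all autosomes, for the 3 lines (1 library each, so no error bar). Each cluster stands above its flanks and the autosomes in every line, and the lines differ most in the type I cluster, from 64.0% to 93.1%.

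The type II cluster was divided by few and mostly short breaks, stretches between islands. Pfeiffer had 7 breaks between its islands, WSU-DLCL2 11 and KARPAS-422 10, besides 2.25 kb after the last island in each line. The shortest break in any list was 3 kb, because the caller bridges shorter gaps. Median breaks were 3.75, 3 and 4.125 kb, and all breaks with that last stretch came to 43.5, 76.5 and 87.75 kb. The longest island of Pfeiffer ran from 52500751 to 52845000 (344.25 kb, 9300 H3K27me3 and 4258 input reads, fold 1.88). That of WSU-DLCL2 ran from 52510501 to 52677000 (166.5 kb, fold 1.89) and that of KARPAS-422 from 52698751 to 52845000 (146.25 kb, fold 2.25). The median island of the cluster was 23.625, 34.875 and 60 kb long, against 20.25, 18.75 and 15.75 kb on the autosomes.

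Most of the type II cluster was covered in all 3 lines, while its open parts coincided only in part. Of its length 85.5% was covered in all 3 lines, 6.36% in 2, 4.56% in 1 and 3.61% in none. On the autosomes 14.8% was covered in all 3 lines and 64.1% in none. Stretches covered in all lines and at least 30 kb long numbered 6. The longest were 52698751 to 52843500 (144.75 kb), 53135251 to 53247750 (112.5 kb) and 53035501 to 53130750 (95.25 kb). Next came 52905001 to 52987500 (82.5 kb) and 52560001 to 52619250 (59.25 kb), the latter from the border at the KRT80 end onwards. No stretch of 15 kb or more lacked an island in all lines, and none of that length was covered in 1 line only or open in 1 line only.

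The widest opening lay after 52843500. WSU-DLCL2 had a break of 26.25 kb there, up to 52869750, and KARPAS-422 one of 32.25 kb, from 52845001 to 52877250. Pfeiffer had 2 breaks in this place, 52845001 to 52858500 and 52869001 to 52880250, around an island of 10.5 kb with 177 H3K27me3 and 75 input reads (fold 2.03, 95% interval 1.54 to 2.70). A break that began at 53130751 occurred in all lines, with 3, 3 and 4.5 kb. WSU-DLCL2 and KARPAS-422 also shared the breaks from 52695751 to 52698750 and from 52987501 to 52991250, inside islands of Pfeiffer. Breaks with exactly the borders of another line's break numbered 1 of 7, 3 of 11 and 2 of 10, against 6.31%, 6.04% and 4.94% of all autosomal gaps of up to 40 kb. At type I they were 2 of 11, 3 of 23 and 1 of 16, the last near the autosomal share of KARPAS-422. These numbers are too small to read a difference from.

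The last island of the cluster, at the KRT18 end, had its highest fold over input in WSU-DLCL2 and KARPAS-422, but not in Pfeiffer. The last island ended at 53347500 in every line. It had 284 H3K27me3 and 140 input reads in Pfeiffer (fold 1.75, 95% interval 1.42 to 2.15). In WSU-DLCL2 it had 398 and 126 reads (fold 2.49, 2.03 to 3.07), and in KARPAS-422 334 and 74 (fold 2.74, 2.13 to 3.58). In both of these lines it was the highest fold of the cluster, above 98.0% and 96.9% of the islands of the list. In WSU-DLCL2 this island had 33.2 H3K27me3 and 10.5 input reads per kb, against 26.2 and 11.7 over the islands of the cluster. In KARPAS-422 it had 23.4 and 5.19, against 27.04 and 7.35, so its H3K27me3 reads per kb were below those of the cluster. The next highest fold of KARPAS-422 lay at the KRT80 end, 52515751 to 52619250 (fold 2.48, 2.28 to 2.70), and the intervals overlapped. In Pfeiffer the highest was the island before the last, 53299501 to 53330250 (fold 2.10, 1.84 to 2.40), above 93.1%. These islands were chosen by fold, which favours folds that are too high, and the intervals hold only the error of counting, as copies made by amplification cannot be told from separate molecules. In the last of 10 equal parts of the cluster, from 53271001 to 53349750, the covered share was 83.8%, 78.1% and 66.7%, below that of the cluster in each line.

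**Figure D3:**
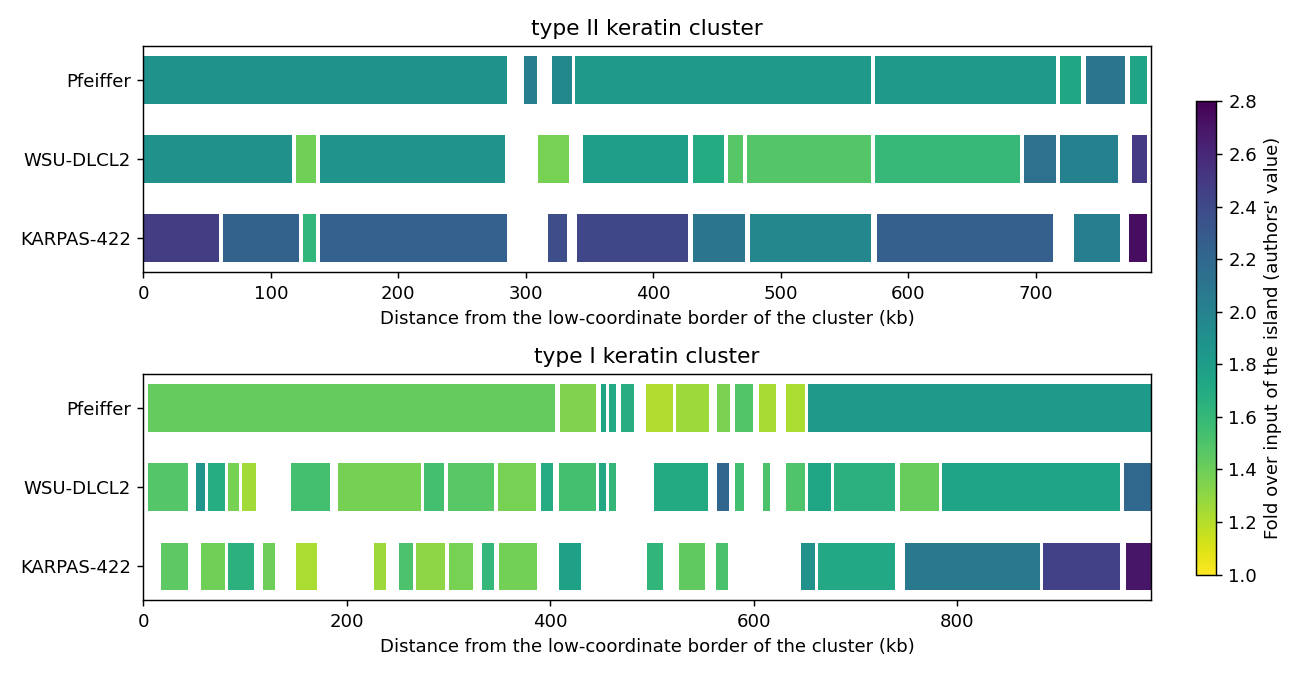
Each block is an H3K27me3 island, drawn by its distance in kb from the low-coordinate border of the cluster and coloured by the authors' fold over input, with 1 row per line. The type II rows are nearly filled and open at the same place before the middle, whereas the type I rows break up in the middle, and in WSU-DLCL2 and KARPAS-422 also at the low end, and are filled again towards the high-coordinate border.

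The breaks of the type I cluster differed more between lines in number and length. Pfeiffer had 11 breaks between islands, WSU-DLCL2 23 and KARPAS-422 19, with medians of 5.25, 4.5 and 9.75 kb. In addition each line lacked an island at the low border, over 3.75, 4.5 and 16.5 kb. With the border stretch these were 1.21, 2.43 and 2.02 breaks per 100 kb, against 1.201, 1.40 and 1.35 in the flanks. At type II the rates were 1.01, 1.52 and 1.39, below the 1.45, 1.95 and 2.00 of its flanks. Breaks of at least 10 kb, that border stretch included, numbered 2, 4 and 10. Pfeiffer's longest was 11.25 kb, that of WSU-DLCL2 37.5 kb (39264751 to 39302250) and that of KARPAS-422 71.25 kb (39375001 to 39446250). KARPAS-422 had a further break of 65.25 kb, from 39230251 to 39295500, and one of 56.25 kb, from 38970751 to 39027000. Of the breaks with the border stretch, 10 of 12 in Pfeiffer met a break of both other lines, against 9 of 24 in WSU-DLCL2 and 5 of 20 in KARPAS-422. At type II, with the stretch at its border, these numbers were 7 of 8, 6 of 12 and 6 of 11. They depend on how much of the cluster has no island in the other lines, and no such number was computed for the flanks or the autosomes.

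Divided into 10 equal parts, the type I cluster fell into 3 segments, which were drawn after the values were seen. Parts 1 to 4 (38800501 to 39196500) were covered for 99.1%, 79.9% and 59.7%. Parts 5 to 7 (39196501 to 39492750) had the lowest pooled share in each line, with 78.2%, 64.8% and 40%. The openings were not limited to them: part 2, at the low end, was covered for 57.6% in WSU-DLCL2 and 42.4% in KARPAS-422, less than parts 6 and 7 in both lines. Parts 8 to 10 (39492751 to 39789750) were filled in all lines, with 100%, 96.2% and 93.7%. In gene order the middle of the cluster is the block of keratin-associated genes, and the high end is the KRT17 end. Where the block begins and ends on hg19 was not read.

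At the low end, Pfeiffer had a single island of 400.5 kb (38804251 to 39204750), its longest in the cluster, with 10071 H3K27me3 and 6071 input reads. Its fold was 1.43 (95% interval 1.38 to 1.47), higher than only 26.4% of the islands of the list. WSU-DLCL2 had 10 islands centred in these parts, with folds from 1.25 to 1.86, and KARPAS-422 had 11, with folds from 1.23 to 1.65. Pooled over its islands there, WSU-DLCL2 had a fold of 1.45 (1.39 to 1.52) and KARPAS-422 one of 1.40 (1.33 to 1.48). The 3 lines thus had overlapping folds at the low end, while the covered share differed widely. From 38991001 to 39027000 KARPAS-422 alone had no island (36 kb), and from 38929501 to 38945250 Pfeiffer alone had one (15.75 kb).

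In the middle, folds were lowest in Pfeiffer. This line had 10 islands centred there, from 5.25 to 34.5 kb, with a pooled fold of 1.33 (1.27 to 1.40). In WSU-DLCL2 10 islands gave 1.66 (1.57 to 1.75) and in KARPAS-422 5 islands gave 1.62 (1.47 to 1.77). Within the longest break of KARPAS-422 Pfeiffer had islands from 39381751 to 39399000 (fold 1.49), from 39405001 to 39421500 (fold 1.23) and from 39432001 to 39450750 (fold 1.23), the last of them running past its end. WSU-DLCL2 had islands of 9, 7.5 and 18.75 kb at these places, with folds of 1.54, 1.51 and 1.49. Reads outside islands are not in the lists, so a break can still hold some of the mark. The highest fold of WSU-DLCL2 in the cluster also lay in the middle, from 39363751 to 39375750 (260 H3K27me3 and 93 input reads, fold 2.20, 1.73 to 2.82). It was nearly equalled at the high end, from 39763501 to 39792000 (fold 2.20, 1.92 to 2.52). The island in the middle had 21.7 H3K27me3 and 7.75 input reads per kb, and the one at the high end 28.1 and 10.1.

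At the high end the mark was broad, with higher folds than at the low end. Pfeiffer had its second long island there, from 39453751 to 39843000 (389.25 kb, 14340 H3K27me3 and 6723 input reads). Its fold of 1.84 (1.78 to 1.89) was the highest of the line in the cluster. WSU-DLCL2 had its longest island from 39585001 to 39759750 (174.75 kb, fold 1.75) and a fold of 2.20 (1.92 to 2.52) from 39763501 to 39792000. In KARPAS-422 the last 4 islands had folds of 1.72, 2.08, 2.46 and 2.70 (2.42 to 3.01 for the last, 39765751 to 39827250), in order towards the KRT17 end. The longest of them ran from 39549001 to 39681750 (132.75 kb). The pooled fold of the islands centred at the high end was 1.84, 1.72 and 2.07, against 1.43, 1.45 and 1.40 at the low end, higher in 3 of 3 lines. Against the middle, the intervals overlapped in WSU-DLCL2 (1.66 to 1.79 and 1.57 to 1.75) but not in Pfeiffer and KARPAS-422. The lines were pooled over unlike stretches. The high-end pool of Pfeiffer was 1 island, which runs on past the border of the cluster. That of KARPAS-422 leaves out its last island (fold 2.70), which is centred past the border. Stretches covered in all lines and at least 30 kb long numbered 5 in the cluster, and 4 of them lay beyond 39479250. The longest were 39585001 to 39681750 (96.75 kb), 39684751 to 39759750 (75 kb) and 39479251 to 39539250 (60 kb). Next came 39149251 to 39186000 (36.75 kb), at the low end, and 39549001 to 39582000 (33 kb).

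**Figure D4:**
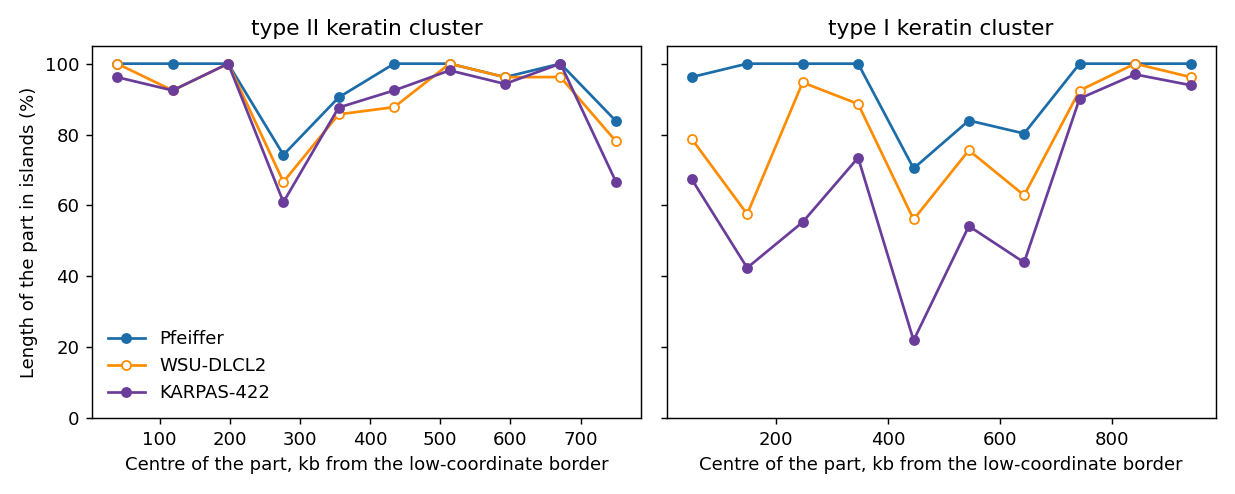
Points give the percentage of length in islands in 10 equal parts of each cluster, against the distance of the part's centre from the low-coordinate border in kb, for the 3 lines. The lines run together in the type II cluster and spread apart in the type I cluster, where KARPAS-422 falls to 22.0% in part 5 and all lines are at 90.2% or more in parts 8 to 10.

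Overlap between lines was correspondingly lower at the type I cluster. Of its length 59.8% was covered in all 3 lines, 23.7% in 2, 10.6% in 1 and 5.91% in none. The largest share of what differed was covered in Pfeiffer and WSU-DLCL2 but not in KARPAS-422 (196.5 kb, 19.9% of the cluster), against 8.44% of its flanks and 3.66% of the autosomes. The next was covered in Pfeiffer alone (96.75 kb, 9.78%), against 8.07% of the flanks and 4.00% of the autosomes. WSU-DLCL2 alone had 4.5 kb (0.455%), against 1.54% of the flanks and 3.49% of the autosomes. KARPAS-422 alone had 3.75 kb (0.379%), against 1.31% and 3.90%. Nearly all that these lines covered lay inside what Pfeiffer covered. Pfeiffer covered 93.1% of the cluster, so most of what another line covered there would lie inside that share in any case. Shared bases divided by bases covered in either line, the Jaccard index, were 0.850 for Pfeiffer and WSU-DLCL2. With KARPAS-422 they were 0.678 for Pfeiffer and 0.711 for WSU-DLCL2. At the type II cluster the same pairs had 0.919, 0.921 and 0.929, against 0.576, 0.555 and 0.553 on the autosomes. Such indices rise with the share covered and were not adjusted for it.

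Covered share and fold over input ranked the lines differently. The fold pooled over the islands of a cluster was the summed H3K27me3 reads over the summed input reads, scaled by the library ratio of the list. At the type II cluster Pfeiffer had 1.86 (95% interval 1.82 to 1.91), WSU-DLCL2 had 1.76 (1.72 to 1.81) and KARPAS-422 had 2.24 (2.17 to 2.31). At the type I cluster it was 1.59 (1.56 to 1.62), 1.61 (1.57 to 1.65) and 1.81 (1.75 to 1.87), lower than at type II in 3 of 3 lines. Over all autosomal islands it was 1.67, 1.65 and 1.71. The type I cluster, though covered far more than average, was thus below that value in Pfeiffer and above it in KARPAS-422. In WSU-DLCL2 the autosomal value lay within the interval of the cluster. The median fold of the type I islands was 1.39, 1.54 and 1.52, against 1.58, 1.54 and 1.61 on the autosomes. With only islands wholly inside, the pooled fold of Pfeiffer at type I was 1.40. KARPAS-422, with the least covered length in both clusters, had the highest pooled folds there, as it had over all autosomal islands. A pooled fold holds only reads inside the islands of that line, so stretches without an island do not lower it. Covered share and pooled fold are therefore not independent measures. Every line was scaled on its own libraries.

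The islands of the flanks had higher folds than those of the type I cluster, whereas at type II the order differed by line. Flanks of type II had pooled folds of 1.90, 1.92 and 1.85, above the cluster in WSU-DLCL2, within its interval in Pfeiffer and below it in KARPAS-422. Flanks of type I had 1.89, 2.25 and 2.21, above the cluster in 3 of 3 lines. Islands with a fold of 2 or more were 2 of 8, 3 of 12 and 9 of 11 at type II and 0 of 12, 2 of 24 and 3 of 20 at type I. The corresponding share of all autosomal islands was 10.5%, 11.3% and 19.6%. Few islands in the clusters make these shares coarse, and long islands enter each as 1.

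Reads per kb showed where input moved with these values. H3K27me3 reads per kb of island were 25.8, 26.2 and 27.04 at type II and 29.0, 22.0 and 21.7 at type I, against 23.1, 24.1 and 22.5 on the autosomes. Input reads per kb were 11.9, 11.7 and 7.35 at type II, or 0.999, 1.02 and 0.918 times the autosomal value of the line. At type I they were 15.7, 10.8 and 7.28, or 1.31, 0.935 and 0.910 times that value. Input was thus raised at the type I cluster in Pfeiffer, the line with the largest covered share there, and by 1.35 times in its flanks. Within the cluster it was 1.27 times the autosomal value at the low end, 1.13 in the middle and 1.45 at the high end. The part of the raised input in the larger covered share of Pfeiffer was not tested. The covered length of WSU-DLCL2 and KARPAS-422 at type I differed by 161.25 kb, and the part of input or depth in this was not tested either. Their H3K27me3 reads per kb of island there were 22.0 (95% interval 21.7 to 22.3) and 21.7 (21.3 to 22.0). Relative to the autosomal value of each line these were 0.913 and 0.962, the other order.

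**Figure D5:**
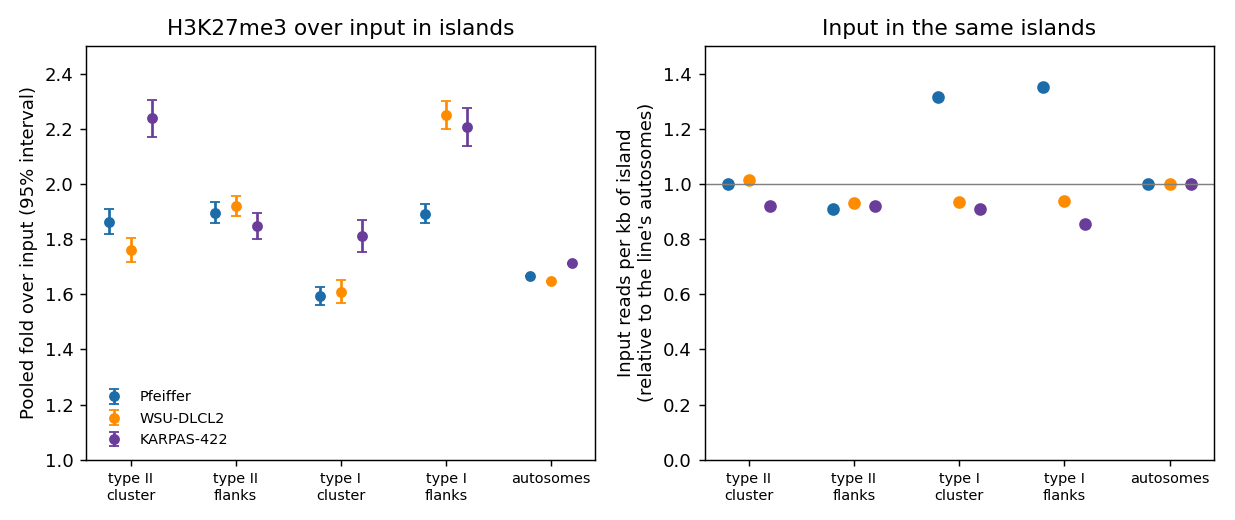
Left, fold over input pooled over islands, with exact 95% intervals for counting error, in the clusters, their flanks and the autosomes of the 3 lines (axis from 1). Right, input reads per kb of island relative to the autosomes of the line, where Pfeiffer stands at 1.31 and 1.35 at the type I cluster and its flanks and the other points lie between 0.854 and 1.02.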

How the data were processed

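H3K27me3 and input libraries of 3 lines were analysed through the deposited lists of islands. The submitters' processing notes name Bowtie, SICER and hg19, with no versions or filters. Windows of 750 bases, gaps of 2250 bases and an FDR of 0.001 are stated in the list names. Each deposited list holds whole counts of H3K27me3 and input reads per island, a p-value, a fold (ratio) over input and a q-value, all made by the authors and called per library.

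Shares were computed on windows of 750 bases lying wholly inside a region. Islands overlapping a cluster entered read sums whole. Flanks were 1 Mb per side, without islands that also touch the cluster. Intervals are exact 95% intervals, Poisson for reads per kb and conditional binomial for ratios, checked on simulated counts. They cover counting error only, and depth is known only inside islands. Autosomal length was taken up to the last listed base. Positions are counted from 1.

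Intervals were named by a fixed rule: per line the longest island and the highest fold with at least 50 H3K27me3 reads. Named too were stretches covered in all lines from 30 kb, and stretches open in all lines, or covered or open in 1 line only, from 15 kb, at most 5 per class. Other islands and breaks in the text, the segments, the comparison of break borders and the promoter genes shown were chosen after values were seen. The members and lists were chosen with earlier results of these data known. Alternatives are in the closing section. Versions were numpy 2.4.6, scipy 1.17.1, pandas 2.3.3 and matplotlib 3.10.9 under Python 3.11.15.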

Additional observations from a re-analysis of the deposited data

How the results depend on the processing

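Of 120 alternative values, 55 stayed within the interval of the reported value (for numbers of breaks, within 1.5 times) and 65 did not. Only the differences in covered share from the flanks and the log2 fold ratios to the flanks could change sign, and none did. The other values cannot be negative, so their sign was not a test. The order of the lines by covered share did change with some settings, as given below. With 1 library per line no replicate could be left out and no paired analysis was possible because no group has a second library. Reads outside islands were not used, so depth limits whether an open stretch lacks the mark. Values below are in the order Pfeiffer, WSU-DLCL2, KARPAS-422.

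With a fold of at least 2 the covered share was 5.22%, 10.4% and 75.5% at type II and 0.0%, 3.87% and 23.4% at type I, and the share covered in all lines 3.13% and 0.0%. Breaks were then 3, 4 and 9 (against 8, 12 and 11) and 1, 2 and 3 (against 12, 24 and 20), since few islands were left. With a false discovery rate of at most 1e-10 WSU-DLCL2 had 83.8% at type II, below KARPAS-422 (88.9%), and type I had 79.3%, 74.8% and 48.1%. The share in all lines was then 80.8% and 39.7%, and breaks at type I were 4 in Pfeiffer and 11 in KARPAS-422. With lists of equal number only type I moved, to 59.5% in KARPAS-422 and 55.3% in all lines.

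Islands under 5 kb apart, when joined, left 2, 3 and 4 breaks at type II and 11 in WSU-DLCL2 at type I. Breaks of at least 5 kb numbered 2, 3 and 4 at type II, and 7 and 10 in Pfeiffer and WSU-DLCL2 at type I. Those of at least 10 kb numbered 2, 3 and 2, and 2, 4 and 10. At type I the larger number of breaks in WSU-DLCL2 than in KARPAS-422 thus rested on short ones.

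With flanks of 2 Mb the type II cluster exceeded them by 47.0, 38.4 and 50.9 points. With flanks of 0.5 Mb it exceeded them by 27.2 and 35.4 points in WSU-DLCL2 and KARPAS-422, and type I did by 33.5, 27.9 and 17.6. The log2 ratio of the pooled fold to that of flanks of 0.5 Mb was -0.075 in Pfeiffer and 0.099 in KARPAS-422 at type II, and -0.32 in Pfeiffer and -0.35 in KARPAS-422 at type I. With flanks of 2 Mb it was -0.40 in WSU-DLCL2 and -0.20 in KARPAS-422 at type I.

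With only islands wholly inside, H3K27me3 reads per kb were 24.9 in Pfeiffer and 25.3 in WSU-DLCL2 at type II, and 23.8 in Pfeiffer and 21.0 in KARPAS-422 at type I, with pooled folds of 1.40 and 1.73 in the last pair. That leaves out the long island at the high end of type I in Pfeiffer. With border islands in proportion they were 28.5 in Pfeiffer and 21.3 in KARPAS-422 at type I. With the stricter false discovery rate they were 26.6 in WSU-DLCL2 at type II, and 30.3 in Pfeiffer and 22.9 in KARPAS-422 at type I, with pooled folds of 1.63 and 1.96. The causes of these changes were not tested, beyond the islands that each setting leaves out.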
